A study of Mus musculus with 8 samples.

Results

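Glucose enters a cell through carriers of the SLC2A family and is broken down to pyruvate and lactate by the enzymes of glycolysis. The expression of 10 genes of this route was followed, out of 24539 genes in the count table: the glucose carrier gene Slc2a1 and the enzyme genes Hk2, Pfkl, Pfkp, Aldoa, Gapdh, Pgk1, Eno1, Pkm and Ldha. They were chosen by name, because glycolysis is tied to progenitor self-renewal, and each matched a single row of the table. All 10 passed the filter on low counts that left 13459 genes for testing.

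The steps have different roles. Hexokinase traps glucose in the cell as glucose 6-phosphate, phosphofructokinase makes the committed step and is the main point of control, and the enzymes from aldolase to pyruvate kinase harvest ATP and NADH. Lactate dehydrogenase then returns NADH to NAD+, so that the route can run without oxygen. Hexokinase and phosphofructokinase are each made from several genes with different properties, and many of the genes are known targets of the hypoxia factor HIF1 and of MYC. In the developing kidney, nephron progenitors are known to lean on glycolysis while they renew and to use it less as they differentiate.

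Mouse embryonic kidneys at E18.5 gave the cells, nephron progenitors isolated by FACS for Six2GFPcre, a transgene with the Six2 promoter that makes a GFP and Cre fusion in these cells. All 4 groups carried Six2GFPcre, and each had 2 libraries of polyadenylated RNA. The KO-labelled group was Smo c/c, the Het-labelled group Smo c/+ and the WT-labelled group Smo +/+. The SmoM2-labelled group was Smo +/+ with Rosa26 SmoM2/+, an allele for an active form of Smo. Smo is the transducer that relays Hedgehog signals into the cell. The series title gives the role of Hedgehog signalling in keeping these progenitors as its subject. The labels do not say whether replicates came from separate embryos or litters, so p-values measure the spread between these libraries, which may be partly technical.

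Smo, the targeted gene, had counts of 3893 and 3442 (WT-labelled), 5915 and 5443 (SmoM2-labelled), 59 and 51 (KO-labelled) and 108 and 141 (Het-labelled). On the CPM scale this is, as mean ± SD with n = 2, 369 ± 8.43 CPM (WT-labelled), 616 ± 17.1 (SmoM2-labelled), 12.1 ± 1.39 (KO-labelled) and 19.2 ± 6.72 (Het-labelled). CPM is the usual depth-scaled count, taken over the library total as scaled by edgeR. The Het label does not match this level, since a group with 1 unaltered allele lay close to the KO-labelled one, so libraries are named by their labels throughout. Total counts ranged from 4422305 to 10305398, and both KO-labelled libraries had the fewest. The progenitor marker list (Six2, Cited1 and 7 others) had no gene at 0 in any group, with sums of 4813 to 5307 CPM in the Het-labelled and 3300 to 4465 CPM in the other libraries. The list of dissociation stress genes (Fos, Jun, Egr1, Hspa1a and 4 others) summed to 2418 to 2525 CPM (WT-labelled), 2744 to 4032 (SmoM2-labelled), 3069 to 4770 (KO-labelled) and 6672 to 6689 (Het-labelled). The early nephron list (Wnt4, Lhx1, Pax8 and 5 others) summed to 1344 to 1632 CPM in the KO-labelled and to 432 to 735 in the other libraries. Erythroid genes summed to 2.77 to 7.87 CPM in the WT- and SmoM2-labelled libraries, 13.7 to 45.1 in the KO-labelled and 19.9 to 24.8 in the Het-labelled ones. Collecting duct genes summed to 1.36 to 3.76 CPM in the KO- and Het-labelled, 9.47 to 12.3 in the WT-labelled and 25.7 to 35.7 in the SmoM2-labelled libraries. Most of the latter sums came from Wnt11, at 9.78 and 7.51 CPM (WT-labelled) and 24.1 and 34.2 (SmoM2-labelled). Ret was at 1.96 and 1.31 (WT-labelled) and 1.53 and 1.27 (SmoM2-labelled), and Wnt9b, Calb1 and Gata3 stayed at or below 0.544 CPM. Proximal tubule genes summed to 58.5 to 59.1 CPM in the Het-labelled and 16.7 to 29.6 in all other libraries. Nearly all of the Het-labelled sum came from Lrp2 (42.7 and 36.8) and Slc5a2 (15.6 and 22.1), while Slc34a1 and Hnf4a had no counts there. Stromal genes summed to 158 to 650 CPM, with the KO-labelled libraries at both ends. Foxd1, a gene of that list, was at 196 and 171 CPM (WT-labelled), 384 and 300 (SmoM2-labelled), 12.8 and 3.70 (KO-labelled) and 22.4 and 14.6 (Het-labelled). Meis1, of the same list, went the other way, at 16.95 and 11.75 CPM (WT-labelled), 10.4 and 11.5 (SmoM2-labelled), 86.3 and 98.3 (KO-labelled) and 114 and 99.8 (Het-labelled). Endothelial and immune lists stayed at or below 6.19 CPM. By Xist and Y-linked genes both KO-labelled libraries were male and both Het-labelled ones female, whereas replicate 1 was male and replicate 2 female in the WT- and SmoM2-labelled groups. Most of these lists, Foxd1, Meis1, depth and sex thus moved with the groups, and their part in the results below was not tested. A score of the stress genes, used below as a covariate, was -0.84 and -0.63 in the WT-labelled libraries. It was 0.62 and 1.10 in the Het-labelled and -0.29 and -0.14 in the KO-labelled ones, without overlap with the WT-labelled values. Against WT-labelled libraries, values given with this score thus cannot tell the stress genes from the labels. In bulk RNA, more cells of a type and more RNA per cell cannot be told apart.

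Slc2a1, Hk2 and Pfkl were higher in both KO-labelled and both Het-labelled libraries than in any WT- or SmoM2-labelled library, and Pfkp was lower. Of all tested genes, 16.5% were higher and 16.6% lower in this way, without overlap, so 4 of 10 genes in both directions together is near the share of all genes. Between KO- and WT-labelled libraries 3 of the 10 genes rose (Slc2a1, Hk2, Pfkl) and 1 fell (Pfkp), with an edgeR adjusted p under 0.05 as the threshold. Of all tested genes, 23% were called in this comparison, 11.6% higher and 11.4% lower. The median log2 change of the 10 genes was 0.70, beside 0.03 over all tested genes. In Het- against WT-labelled libraries 7 genes rose (Slc2a1, Hk2, Pfkl, Aldoa, Gapdh, Eno1, Ldha) and none fell, where 25.3% of all genes were called and 13.1% were higher. There the median was 0.94 for the 10 genes and -0.02 for all genes. Both comparisons share the WT-labelled libraries. Without WT-labelled replicate 1 the medians of the 10 genes were 0.33 for KO- and 0.57 for Het- against WT-labelled libraries. Without WT-labelled replicate 2 they were 0.97 and 1.42 in the same order.

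**Figure D1:**
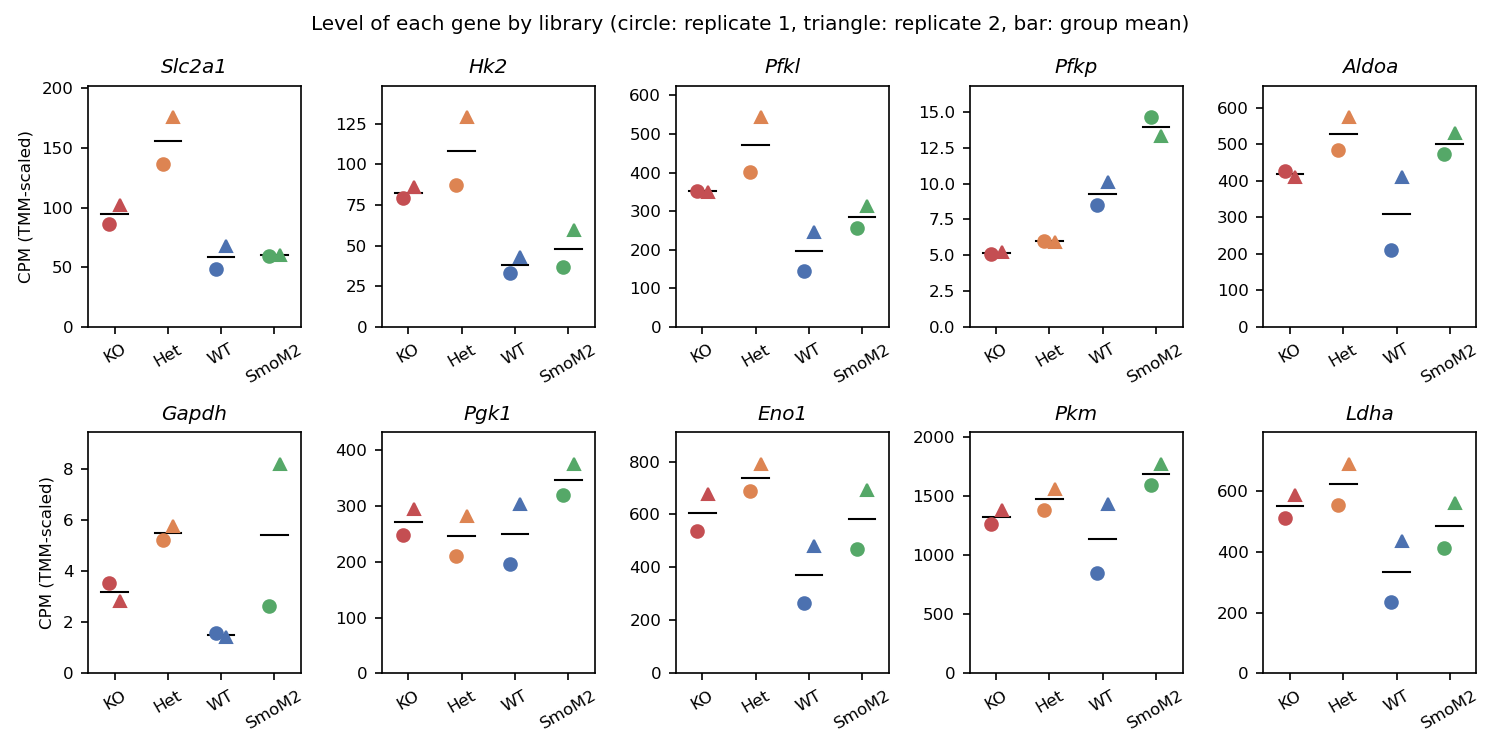
Level of each gene in each library, in CPM on linear axes that start at 0, by labelled group, where circles are replicate 1, triangles replicate 2 and bars group means. Slc2a1, Hk2 and Pfkl are highest in the Het-labelled group, Pfkp is highest in the SmoM2-labelled group, and most genes are lowest in WT-labelled replicate 1.

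No gene was called in SmoM2- against WT-labelled libraries, where edgeR called 0.223% of all genes and DESeq2 likewise called none of the 10. All 10 log2 changes were positive, with a median of 0.55 beside 0.00 for all genes. Of these, Slc2a1 (0.04) was -0.18 without WT-labelled replicate 1, -0.19 with a score of the stress genes as a covariate and -0.0048 with total count scaling, and Hk2 (0.33) was -0.04 without SmoM2-labelled replicate 2 and -0.41 with the stress score. Without WT-labelled replicate 1 Ldha went from 0.54 to 0.16. The median of the 10 genes was 0.22 without that library, 0.996 without WT-labelled replicate 2 and 0.09 with the stress score. All 10 rest on the same 2 WT-labelled libraries. In this comparison 8 of the 10 had an unadjusted p under 0.05, beside 7.7% of all genes in either direction and 3.9% in the higher one. KO- against Het-labelled libraries gave 1 call, a lower Slc2a1, where 9.43% of all genes were called and 5.1% were lower. KO- against SmoM2-labelled libraries gave 2 higher genes (Slc2a1, Hk2) and 1 lower gene (Pfkp), where 32.5% of all genes were called, 16.5% higher and 16% lower. In a test over the 4 groups together 6 of the 10 genes were called, namely Slc2a1, Hk2, Pfkl, Pfkp, Gapdh and Eno1, beside 41% of all genes. The count of 4 in KO- against WT-labelled libraries became 1 without WT-labelled replicate 1, 1 without KO-labelled replicate 2, 2 without KO-labelled replicate 1 and 7 without WT-labelled replicate 2. The count of 7 in Het- against WT-labelled libraries became 3 without either Het-labelled library or without WT-labelled replicate 1. With the stress score as a covariate, the 4 became 1 (Hk2) and the 7 became 0. The 0 in SmoM2- against WT-labelled libraries became 5 without WT-labelled replicate 2 and 7 with no filter on low counts.

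**Figure D2:**
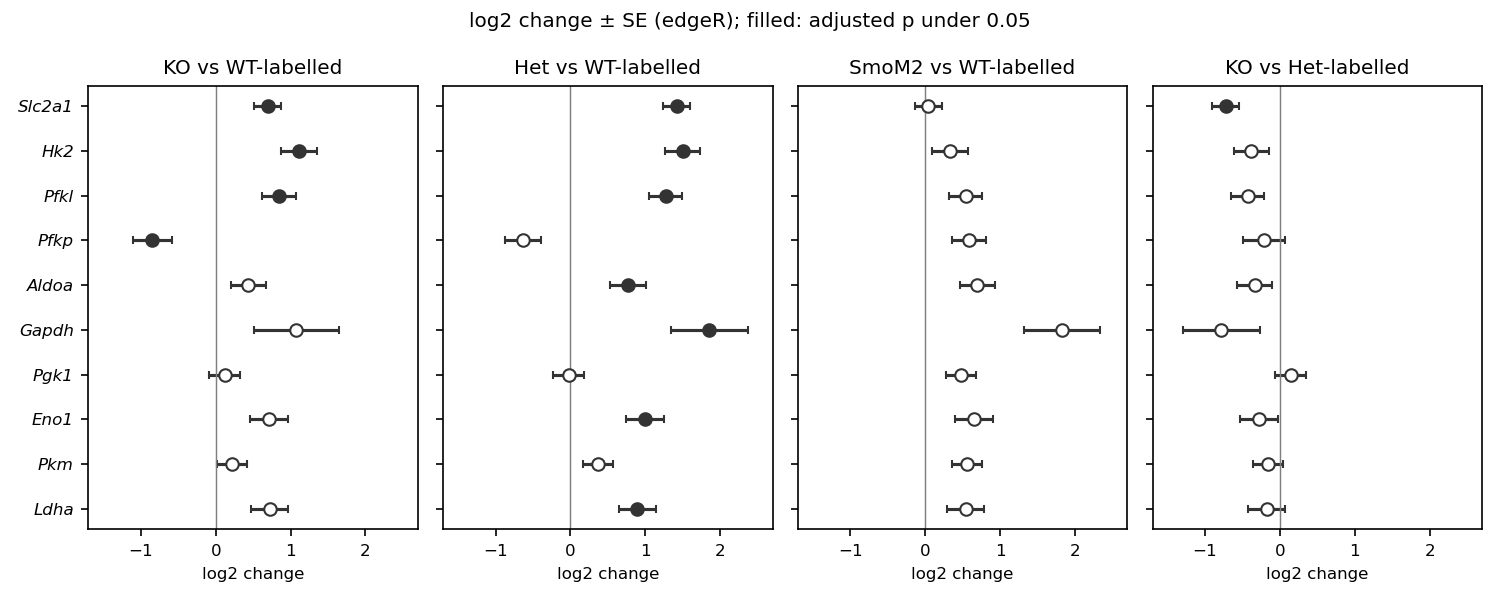
Log2 change of each gene in 4 comparisons from the edgeR fit, with bars of 1 standard error, where filled points have an adjusted p under 0.05. Filled points stand at 4 genes for KO- against WT-labelled, 7 for Het- against WT-labelled, none for SmoM2- against WT-labelled and 1 for KO- against Het-labelled libraries.

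The stretches before the start sites of 4 of these genes are shown, 3 because their genes were higher on the KO- and Het-labelled side and Ldha because it held the most matches. Each is taken from the 250 bases before the start in RefSeq (GRCm38.p6) and written 5′ to 3′ on the gene's strand. Bases that GENCODE places in an exon were left out. Capitals mark ACGTG and GCGTG, the forms of the core that HIF1 recognises, on either strand, so CACGT and CACGC are the same matches read from the other strand. CACGTG, the E-box bound by MYC and MLXIPL, holds ACGTG on both strands and counts as 2 matches.
Slc2a1 (chr4:119108495-119108710, plus strand): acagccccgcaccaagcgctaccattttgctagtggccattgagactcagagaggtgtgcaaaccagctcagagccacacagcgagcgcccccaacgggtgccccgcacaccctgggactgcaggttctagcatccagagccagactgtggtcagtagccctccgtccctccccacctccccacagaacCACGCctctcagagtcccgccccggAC
Hk2 (chr6:82774455-82774704, minus strand): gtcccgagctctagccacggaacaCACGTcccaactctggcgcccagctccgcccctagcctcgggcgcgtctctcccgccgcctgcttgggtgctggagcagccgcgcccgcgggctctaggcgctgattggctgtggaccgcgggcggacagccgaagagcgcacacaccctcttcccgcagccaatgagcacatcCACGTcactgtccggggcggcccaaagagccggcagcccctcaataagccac
Pfkl (chr10:78009808-78010004, minus strand): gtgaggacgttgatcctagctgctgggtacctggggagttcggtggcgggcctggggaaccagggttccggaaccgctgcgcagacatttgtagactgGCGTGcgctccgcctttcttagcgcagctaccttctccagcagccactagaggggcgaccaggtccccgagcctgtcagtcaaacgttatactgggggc
Ldha (chr7:46845554-46845803, plus strand): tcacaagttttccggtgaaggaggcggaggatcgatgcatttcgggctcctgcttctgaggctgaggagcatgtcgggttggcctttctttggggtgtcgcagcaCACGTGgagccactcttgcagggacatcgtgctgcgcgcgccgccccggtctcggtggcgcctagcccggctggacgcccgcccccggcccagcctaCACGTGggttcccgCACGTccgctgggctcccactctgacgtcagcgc
Hk2 held 2 ACGTG, Pfkl 1 GCGTG and Ldha 5 ACGTG, of which 4 form 2 CACGTG. Slc2a1 held 1 GCGTG in the stretch shown and 1 ACGTG that runs from its last 2 bases into the 34 bases left out. A second Ldha start in RefSeq, chr7:46846832-46847081 on the plus strand for its window, held no ACGTG and 1 GCGTG. The window of Pfkp, the gene that was lower, held 3 GCGTG. That of Pgk1, called in no comparison, held 2 ACGTG, and that of Gapdh 2 GCGTG. Over their windows of 250 bases, Aldoa and Pkm held 0 or 1 ACGTG and no GCGTG, and Eno1 held no ACGTG and 1 or 2 GCGTG. Of 32851 RefSeq windows of 250 bases, 16.6% held ACGTG, 28.2% GCGTG, 38.6% either and 6.02% CACGTG, so such matches are common, and no binding was measured here.

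Slc2a1 (chr4:119108745-119137330) encodes GLUT1, the main basal glucose carrier of most growing cells. It was at 48.5 and 68.0 CPM (WT-labelled), 59.5 and 60.5 (SmoM2-labelled), 86.5 and 102 (KO-labelled) and 136 and 176 (Het-labelled), with replicates in order. The Het-labelled libraries were the highest, the KO-labelled came next, and the WT- and SmoM2-labelled libraries overlapped. Against WT-labelled libraries it rose 1.62-fold in the KO-labelled (log2 0.70, SE 0.18, edgeR adjusted p 0.0186) and 2.68-fold in the Het-labelled (log2 1.42, SE 0.18, edgeR adjusted p 0.000467). The Het-labelled level also stood above the KO-labelled level, by a KO-minus-Het log2 change of -0.73 (SE 0.18, edgeR adjusted p 0.0300). Against SmoM2-labelled libraries the KO-labelled ones were higher by 0.65 (SE 0.18, edgeR adjusted p 0.0180). SmoM2- and WT-labelled libraries differed by 0.04, with a 95% interval from -0.35 to 0.43.

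The rise of Slc2a1 in KO- against WT-labelled libraries was 0.47 without WT-labelled replicate 1 (edgeR adjusted p 0.120) and 0.57 without KO-labelled replicate 2 (edgeR adjusted p 0.100), and neither passed the threshold. The KO-minus-Het change did not pass without any single 1 of these 4 libraries, at -0.55 to -0.90 (edgeR adjusted p 0.0620 to 0.181). That against SmoM2-labelled libraries did not pass without KO-labelled replicate 2, SmoM2-labelled replicate 1 or SmoM2-labelled replicate 2, at 0.52 to 0.62 (edgeR adjusted p 0.0798 to 0.107). The rise in Het- against WT-labelled libraries passed without each library in turn and was 0.95 (edgeR adjusted p 0.262) with a score of the stress genes as a covariate.

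Hk2 (chr6:82725025-82774454) encodes hexokinase 2, the inducible form of the enzyme. It was at 33.2 and 43.3 CPM (WT-labelled), 36.9 and 59.6 (SmoM2-labelled), 79.4 and 85.9 (KO-labelled) and 87.2 and 129 (Het-labelled). All 4 KO- and Het-labelled values lay above all 4 of the others. It rose 2.17-fold in KO- against WT-labelled (log2 1.11, SE 0.24, edgeR adjusted p 0.00820) and 2.83-fold in Het- against WT-labelled libraries (1.50 on the log2 scale, SE 0.24, edgeR adjusted p 0.00150). The KO- against WT-labelled rise passed in each of the 19 alternative analyses, with log2 changes from 0.67 to 1.32. Against SmoM2-labelled libraries the KO-labelled ones were higher by 0.78 (SE 0.24, edgeR adjusted p 0.0275), which became 0.43 without SmoM2-labelled replicate 1 (edgeR adjusted p 0.229), 0.83 without KO-labelled replicate 1 (edgeR adjusted p 0.0824) and 0.72 without KO-labelled replicate 2 (edgeR adjusted p 0.110). KO- and Het-labelled libraries differed by -0.38 (95% interval -0.90 to 0.13), and SmoM2- and WT-labelled libraries by 0.33 (95% interval -0.18 to 0.85). The Het- against WT-labelled change was 0.09 (edgeR adjusted p 0.921) with the stress score as a covariate.

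The other hexokinase gene of these cells moved the opposite way. Hk1, the housekeeping form, was at 110 and 129 CPM (WT-labelled), 155 and 151 (SmoM2-labelled), 49.1 and 58.3 (KO-labelled) and 64.2 and 67.7 (Het-labelled). It fell in KO- against WT-labelled (log2 -1.15, SE 0.14, edgeR adjusted p 0.000388) and in Het- against WT-labelled libraries (-0.86 on the log2 scale, SE 0.13, edgeR adjusted p 0.00142). In the authors' RPKM values, which divide by gene length and so allow genes to be set side by side, Hk2 made up 55.8 ± 1.62% (SD, n = 2) of the summed Hk1 and Hk2 level in the KO-labelled and 56.8 ± 5.86% in the Het-labelled libraries. In the WT-labelled libraries its share was 20.6 ± 1.29% and in the SmoM2-labelled 20.3 ± 5.72%. Hk2 was thus the larger of the 2 in each KO- and Het-labelled library and the smaller in each of the others. The sum of the 2 was 27.4 ± 2.16 RPKM (WT-labelled), 34.2 ± 1.73 (SmoM2-labelled), 23.0 ± 2.22 (KO-labelled) and 27.7 ± 4.61 (Het-labelled).

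**Figure D3:**
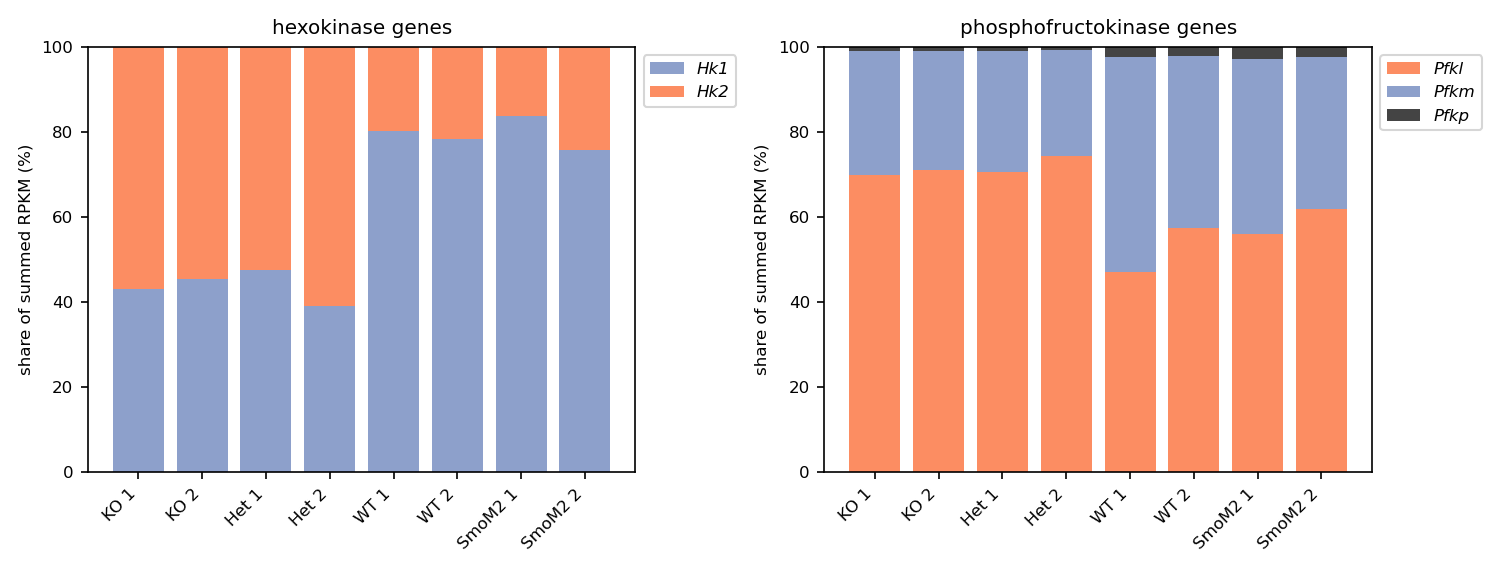
Share of each gene in the summed RPKM of its enzyme family by library, in percent, for hexokinase (Hk1, Hk2) and phosphofructokinase (Pfkl, Pfkm, Pfkp). The Hk2 share is at most 24.3% in the WT- and SmoM2-labelled libraries and above 50% in the other 4, and the Pfkl share is at most 61.8% in the former and 70.0% or more in the latter.

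Phosphofructokinase, the main valve of the route, has 3 genes, Pfkl, Pfkm and Pfkp, named for liver, muscle and platelet. Pfkl (chr10:77986947-78009807) was at 145 and 247 CPM (WT-labelled), 257 and 313 (SmoM2-labelled), 353 and 350 (KO-labelled) and 402 and 543 (Het-labelled). As for Hk2, the KO- and Het-labelled libraries did not overlap with the rest. It rose 1.80-fold in KO- against WT-labelled (log2 0.85, SE 0.22, edgeR adjusted p 0.0197) and 2.42-fold in Het- against WT-labelled libraries (1.27 on the log2 scale, SE 0.22, edgeR adjusted p 0.00267). The first of these was 0.51 without WT-labelled replicate 1 (edgeR adjusted p 0.0962), 0.84 without KO-labelled replicate 1 (edgeR adjusted p 0.0916) and 0.84 without KO-labelled replicate 2 (edgeR adjusted p 0.0662), none past the threshold. The second was 0.41 (edgeR adjusted p 0.689) with the stress score as a covariate. SmoM2-labelled libraries lay above WT-labelled ones by 0.54, which was not called (SE 0.22, edgeR adjusted p 0.581).

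Pfkp (chr13:6579874-6649060) was the gene that ran against the others, at a low level. Its counts were 91 and 93 (WT-labelled), 143 and 115 (SmoM2-labelled), 23 and 24 (KO-labelled) and 45 and 35 (Het-labelled). In the same order these make 8.48 and 10.1, 14.6 and 13.3, 5.09 and 5.22, and 6.01 and 5.94 CPM, so the group means stepped up from KO- to Het- to WT- to SmoM2-labelled libraries with no overlap. It fell in KO- against SmoM2-labelled libraries by 1.43 on the log2 scale (SE 0.26, edgeR adjusted p 0.00196), a call that passed in each of the 19 alternatives. In KO- against WT-labelled libraries it fell by 0.85 (SE 0.26, edgeR adjusted p 0.0366). That call did not pass with DESeq2 (adjusted p 0.0910) or when only the groups compared were fitted (edgeR adjusted p 0.0764), and its edgeR adjusted p was 0.136 without KO-labelled replicate 1, 0.0968 without KO-labelled replicate 2, 0.0529 without WT-labelled replicate 1 and 0.130 without WT-labelled replicate 2. Het- against WT-labelled libraries gave -0.63 (edgeR adjusted p 0.0762) and SmoM2- against WT-labelled libraries 0.59 (edgeR adjusted p 0.518), neither called.

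Pfkm showed no called change against WT-labelled libraries and lay between 32.1 and 40.6 RPKM in all 8. By RPKM, Pfkl made up 52.3 ± 7.30% (WT-labelled), 58.9 ± 4.03% (SmoM2-labelled), 70.5 ± 0.715% (KO-labelled) and 72.4 ± 2.68% (Het-labelled) of the family (SD, n = 2). Pfkp made up 2.27 ± 0.252%, 2.58 ± 0.351%, 0.918 ± 0.0304% and 0.828 ± 0.151% in the same order. Both shares parted the KO- and Het-labelled libraries from the others.

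Among the 10 genes, those of the later enzymes, other than Gapdh, were expressed above those of the first steps. Over the 8 libraries the mean RPKM was 443 for Pkm, 266 for Eno1, 212 for Ldha, 197 for Aldoa, 125 for Pgk1, 72.0 for Pfkl, 29.4 for Slc2a1, 10.3 for Hk2, 2.13 for Gapdh and 1.67 for Pfkp. Pkm lay above 99.3% of the tested genes and Hk2 above 55.8%. Gapdh, whose transcript is among the most abundant of most tissues, lay above 22.1%.

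Near-identical copies limit what these counts can mean. Of all stretches of 50 bases in the Gapdh transcript, 82.5% also occurred in transcripts of other genes in the GENCODE annotation, 218 genes in all. The share was 72.2% for Eno1, mostly with Eno1b, and 68.0% for Pgk1, mostly with Pgk1-rs7. It was 34.4% for Pkm, 16.7% for Ldha, 13.5% for Aldoa, 0.0543% for Pfkl and 0 for Slc2a1, Hk2 and Pfkp. How reads from such shared stretches were counted is not given in the sources used here, so levels of Gapdh, Eno1 and Pgk1 are uncertain and those of Pkm, Ldha and Aldoa less so, and the part of the copies in the results was not tested.

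**Figure D4:**
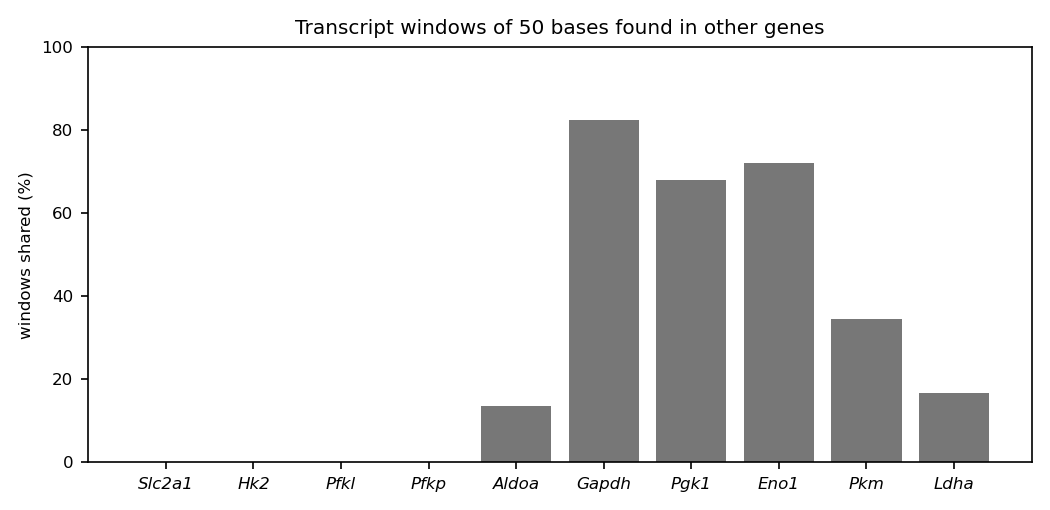
Share of the 50-base stretches of each gene's GENCODE transcript that also occur in transcripts of other genes, in percent. Gapdh, Eno1 and Pgk1 stand at 82.5%, 72.2% and 68.0%, and the 4 genes at the start of the route at or near 0.

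Aldolase splits fructose 1,6-bisphosphate into 2 triose phosphates. Aldoa (chr7:126795234-126800994) was at 210 and 409 CPM (WT-labelled), 473 and 531 (SmoM2-labelled), 428 and 409 (KO-labelled) and 484 and 573 (Het-labelled). WT-labelled replicate 2 reached the KO-labelled level, and replicate 1 was far below all others. Aldoa rose 1.71-fold in Het- against WT-labelled libraries (0.77 on the log2 scale, SE 0.24, edgeR adjusted p 0.0341). That call was lost without WT-labelled replicate 1 (0.37, edgeR adjusted p 0.129), without Het-labelled replicate 1 (0.86, edgeR adjusted p 0.0786), without Het-labelled replicate 2 (0.63, edgeR adjusted p 0.186) and with DESeq2 (adjusted p 0.0891). KO- against WT-labelled libraries gave 0.44 (SE 0.24, edgeR adjusted p 0.205).

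Gapdh (chr6:125161852-125166467), the dehydrogenase that makes NADH, had counts of 17 and 13 (WT-labelled), 26 and 71 (SmoM2-labelled), 16 and 13 (KO-labelled) and 39 and 34 (Het-labelled). In CPM these are 1.58 and 1.41, 2.66 and 8.20, 3.54 and 2.83, and 5.21 and 5.77 in the same order, where the SmoM2-labelled replicates differed 3.09-fold. Gapdh rose 3.62-fold in Het- against WT-labelled libraries (1.85 on the log2 scale, SE 0.51, edgeR adjusted p 0.0218). The call was lost without any single 1 of the 4 Het- and WT-labelled libraries (edgeR adjusted p 0.0644 to 0.0903), at 1.76 to 1.94. Pgk1 (chrX:106187100-106203699) encodes phosphoglycerate kinase, the first step that makes ATP. It was at 196 and 303 CPM (WT-labelled), 319 and 375 (SmoM2-labelled), 248 and 295 (KO-labelled) and 210 and 281 (Het-labelled), and no comparison called it. Its KO- against WT-labelled change was 0.12 (95% interval -0.33 to 0.57) and its Het- against WT-labelled change -0.02 (95% interval -0.47 to 0.42). Pgk1 is X-linked, and the sex of the libraries differed between the groups as given above.

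Enolase makes phosphoenolpyruvate. Eno1 (chr4:150236708-150248879) was at 264 and 480 CPM (WT-labelled), 471 and 694 (SmoM2-labelled), 539 and 676 (KO-labelled) and 688 and 791 (Het-labelled). It rose 1.99-fold in Het- against WT-labelled libraries (0.99 on the log2 scale, SE 0.26, edgeR adjusted p 0.0161). Without WT-labelled replicate 1 the change was 0.62 (edgeR adjusted p 0.0709), without Het-labelled replicate 1 it was 1.05 (edgeR adjusted p 0.0509) and without Het-labelled replicate 2 it was 0.87 (edgeR adjusted p 0.0962). The KO- against WT-labelled change of 0.71 (SE 0.25, edgeR adjusted p 0.0652) was not called. These libraries did not overlap, as was the case for 32.2% of all genes in the higher direction. The copy Eno1b was at 313 and 563 CPM (WT-labelled), 541 and 715 (SmoM2-labelled), 689 and 716 (KO-labelled) and 703 and 834 (Het-labelled), so both genes were lowest in WT-labelled replicate 1.

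Pyruvate kinase makes pyruvate and ATP. Pkm (chr9:59656576-59679372) was at 849 and 1436 CPM (WT-labelled), 1597 and 1775 (SmoM2-labelled), 1264 and 1385 (KO-labelled) and 1387 and 1563 (Het-labelled). SmoM2-labelled libraries were the highest, and no comparison called Pkm. Its change was 0.21 in KO- against WT-labelled (95% interval -0.23 to 0.65) and 0.56 in SmoM2- against WT-labelled libraries (95% interval 0.12 to 1.00, edgeR adjusted p 0.464). The table counts Pkm as 1 gene, so its splice forms could not be separated.

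Ldha (chr7:46842274-46855627), which turns pyruvate into lactate, was at 234 and 435 CPM (WT-labelled), 413 and 560 (SmoM2-labelled), 512 and 588 (KO-labelled) and 554 and 689 (Het-labelled). It rose 1.86-fold in Het- against WT-labelled libraries (0.90 on the log2 scale, SE 0.25, edgeR adjusted p 0.0223). That call was lost without Het-labelled replicate 1 (1.01, edgeR adjusted p 0.0508), without Het-labelled replicate 2 (0.71, edgeR adjusted p 0.147), without WT-labelled replicate 1 (0.51, edgeR adjusted p 0.0972) and with DESeq2 (adjusted p 0.0604). KO- against WT-labelled libraries gave 0.72 (SE 0.25, edgeR adjusted p 0.0569), which was not called.

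Replicates of the WT-labelled group were the furthest apart in most of these genes. Replicate 2 was higher than replicate 1 in 9 of the 10 genes, with a median ratio of 1.62 and ratios of 1.95 for Aldoa, 1.86 for Ldha and 1.82 for Eno1, while Gapdh had 0.893. The median ratio was 1.19 in the SmoM2-, 1.09 in the KO- and 1.21 in the Het-labelled group. Among all tested genes 50.6% were higher in WT-labelled replicate 2, and the median absolute log2 ratio there was 0.20, against 0.69 for the 10 genes. Replicate 2 was also the female library of the WT- and SmoM2-labelled groups. Together the 10 genes took 0.207% of the counts in WT-labelled replicate 1, 0.336% in replicate 2 and 0.359% to 0.473% in all other libraries.

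**Figure D5:**
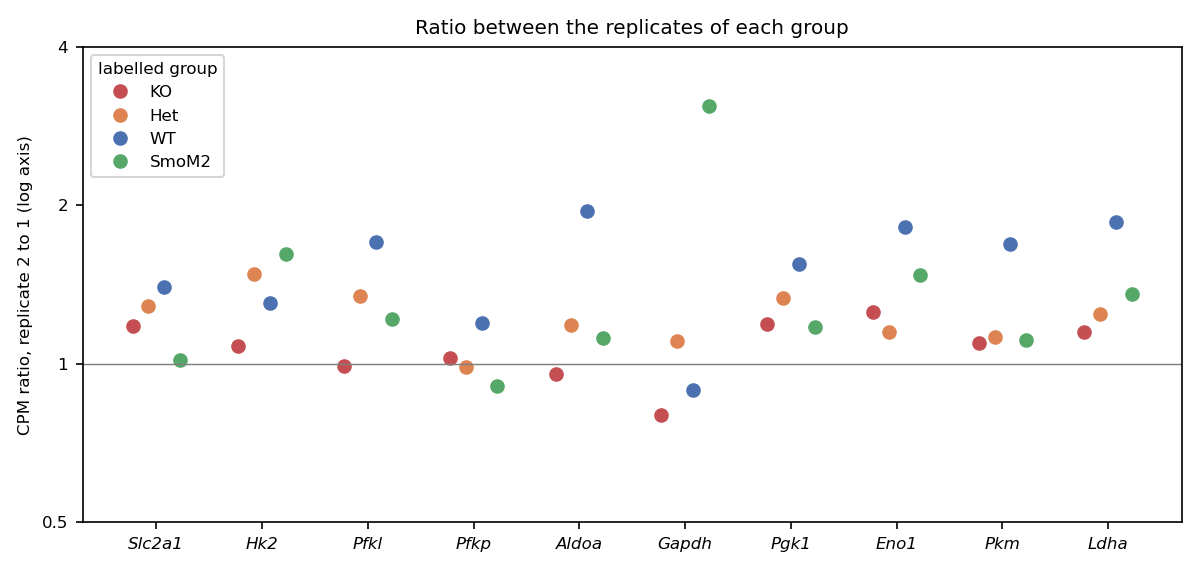
Ratio of replicate 2 to replicate 1 in CPM for each gene and labelled group, on a log axis with a line at 1. The WT-labelled points lie highest for Aldoa, Ldha, Eno1, Pfkl and Pkm, and Gapdh in the SmoM2-labelled group stands at 3.09.

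The genes did not share a single profile. Across the 8 libraries, Pearson's r of log2 CPM was 0.93 between Slc2a1 and Hk2, 0.93 between Hk2 and Pfkl, 0.99 between Eno1 and Ldha, and 0.94 between Aldoa and Pkm. With Pkm it was lower, at 0.31 for Slc2a1 and 0.37 for Hk2, whereas with Ldha it was 0.77 for Slc2a1, 0.86 for Hk2 and 0.96 for Pfkl. Pfkp had -0.69 with Slc2a1 and -0.72 with Hk2. These 8 points share scaling and group structure, and r is given as a description.

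The rest of the pathway was read from 8 lists with 99 genes, of which 84 were tested. In KO- against WT-labelled libraries 14 rose and 9 fell, in Het- against WT-labelled libraries 16 rose and 5 fell, and in SmoM2- against WT-labelled libraries none was called by edgeR. In the first 2 comparisons 27.4% and 25% of these genes were called, beside 23% and 25.3% of all genes, so the lists as a whole were near the share of all genes. With the stress score as a covariate, 14 of the 23 calls and 1 of the 21 calls passed, the latter that of Pdp2. KO- against Het-labelled libraries gave 0 higher and 5 lower genes, and KO- against SmoM2-labelled libraries 17 higher and 16 lower. These make up 5.95% and 39.3% of the tested list genes, beside 9.43% and 32.5% of all genes. In the list of other glycolysis enzymes, 16 of 22 were tested. Of these, 6.25% were called in KO- against WT-labelled and 31.25% in Het- against WT-labelled libraries, beside the 23% and 25.3% of all genes. Hk1 alone was called in KO- against WT-labelled libraries. In Het- against WT-labelled libraries Tpi1 (0.73), Pgam1 (0.82), Eno1b (0.81) and Ldhb (1.11) rose beside the fall of Hk1. The list's median log2 change was 0.35 in the first and 0.43 in the second comparison, against 0.03 and -0.02 for all genes. With the stress score as a covariate these rises became 0.05 for Tpi1, 0.14 for Pgam1, -0.11 for Eno1b and 0.06 for Ldhb (edgeR adjusted p 0.892 to 0.972). Of these 4 rises, Ldhb passed without each library in turn. Without Het-labelled replicate 2 the changes were 0.60 for Tpi1, 0.75 for Pgam1 and 0.67 for Eno1b, and without WT-labelled replicate 1 they were 0.44 for Tpi1 and 0.45 for Eno1b, none of these past the threshold. Tpi1 (0.80, edgeR adjusted p 0.0543) and Eno1b (0.90, edgeR adjusted p 0.0640) also missed it without Het-labelled replicate 1.

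In the list of sugar and lactate transport 3 of 12 tested genes were called in KO- against WT-labelled (2 higher, 1 lower) and 3 in Het- against WT-labelled libraries (all higher), near the share of all genes. Slc16a3, which encodes the lactate exporter MCT4, was at 34.8 and 36.9 CPM (WT-labelled), 36.2 and 54.2 (SmoM2-labelled), 61.5 and 65.5 (KO-labelled) and 87.5 and 155 (Het-labelled). It rose in Het- against WT-labelled (log2 1.76, SE 0.25, edgeR adjusted p 0.000910) and in KO- against WT-labelled libraries (0.82 on the log2 scale, SE 0.25, edgeR adjusted p 0.0364), the latter at 0.77 to 0.87 and not past the threshold without any single 1 of these 4 libraries (edgeR adjusted p 0.0887 to 0.126). With the stress score the changes were 0.36 (edgeR adjusted p 0.688) and 0.38 (edgeR adjusted p 0.228). Slc2a3, the other high-affinity glucose carrier, had at most 6.09 CPM and was not called. Pyruvate dehydrogenase is switched off by its kinases and on by its phosphatases. Of 13 tested genes of pyruvate entry, 2 rose and 2 fell in KO- against WT-labelled and 1 rose and 1 fell in Het- against WT-labelled libraries, with medians of -0.02 and -0.16. These calls make up 30.8% and 15.4% of the list, beside 23% and 25.3% of all genes. For KO- against WT-labelled libraries, the kinase genes Pdk1 (-0.79) and Pdk4 (-1.42) fell and the phosphatase gene Pdp2 rose (1.43, edgeR adjusted p 0.00206). In Het- against WT-labelled libraries Pdk4 fell by 1.31 and Pdp2 rose by 2.20 (edgeR adjusted p 0.000139). Pdp2 passed in all 19 alternatives of both comparisons, and Pdk2, Pdk3 and Pdp1 were called in neither. Pdk1 missed the threshold without KO-labelled replicate 1 (-0.72), KO-labelled replicate 2 (-0.88) or WT-labelled replicate 2 (-0.65). Pdk4 missed it without KO-labelled replicate 1 (-1.30), KO-labelled replicate 2 (-1.57) or WT-labelled replicate 1 (-1.23) in the first comparison and without Het-labelled replicate 1 (-1.07) or WT-labelled replicate 1 (-1.11) in the second, and with the stress score it was -0.97 in the first and turned to 0.08 in the second (edgeR adjusted p 0.126 and 0.975). Pfkfb2, whose enzyme makes the phosphofructokinase activator fructose 2,6-bisphosphate, fell by 0.93 and 0.75 in these comparisons, the second at -0.72 and not called without Het-labelled replicate 2, and Pfkfb3, Pfkfb4, Pfkfb1 and Tigar were not called.

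Among 17 tested hypoxia response genes, 5 rose and 2 fell in KO- against WT-labelled and 5 rose and 1 fell in Het- against WT-labelled libraries, with medians of -0.19 and 0.13. The calls make up 41.2% and 35.3% of the list, beside 23% and 25.3% of all genes. Vegfa, the vascular growth factor gene, was at 155 and 195 CPM (WT-labelled), 167 and 179 (SmoM2-labelled), 383 and 363 (KO-labelled) and 505 and 574 (Het-labelled). Its rises were 1.10 (SE 0.14, edgeR adjusted p 0.000517) and 1.63 (SE 0.14, edgeR adjusted p 7.35e-05). Ankrd37 rose by 1.58 and 1.49 and Ddit4 by 1.02 and 1.01 in the same order. Hif1a itself was not called (-0.31 and -0.42), nor was Bnip3 (0.41 and 0.35). The genes that fell were Arnt (-0.425) and P4ha2 (-0.85) in the first comparison and Mxi1 (-0.60) in the second. Arnt was not called with only the groups compared (-0.45, edgeR adjusted p 0.0501), nor P4ha2 with total count scaling (-0.82, edgeR adjusted p 0.0560). With a KO- or WT-labelled library left out, P4ha2 was at -0.75 to -0.97. Arnt was -0.37 without KO-labelled replicate 1 or WT-labelled replicate 1, and Mxi1 -0.54 without Het-labelled replicate 1. With the stress score as a covariate, 5 of the 7 calls in the first comparison and 0 of the 6 in the second passed. Known HIF1 targets were among the members of the list that rose, among those that fell (P4ha2, Mxi1) and among those that were not called.

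Of 11 upstream regulators, 2 rose and 2 fell in KO- against WT-labelled and 1 rose and 1 fell in Het- against WT-labelled libraries. The calls make up 36.4% and 18.2% of this list, beside 23% and 25.3% of all genes. Txnip changed most. TXNIP holds back glucose uptake, and its gene was at 212 and 396 CPM (WT-labelled), 177 and 258 (SmoM2-labelled), 67.7 and 43.5 (KO-labelled) and 85.2 and 90.6 (Het-labelled). It fell by 2.45 in KO- against WT-labelled (SE 0.30, edgeR adjusted p 0.000419) and by 1.79 in Het- against WT-labelled libraries (SE 0.28, edgeR adjusted p 0.00150). Slc2a1 and Txnip thus differed in opposite directions in these 2 comparisons. Both means were lower in the KO- than in the Het-labelled group, at 94.3 and 156 CPM for Slc2a1 and 55.6 and 87.9 for Txnip. From replicate 1 to 2 both were higher in the WT-, SmoM2- and Het-labelled groups, but in the KO-labelled group only Slc2a1 was. A link between the 2 genes was not tested. Mlxip fell by 0.53 in KO- against WT-labelled libraries (edgeR adjusted p 0.0100), or -0.16 and not called with length trends removed. Mlxipl rose by 1.01 and 0.97 in the 2 comparisons (edgeR adjusted p 0.0449 and 0.0453). With the stress score as a covariate Mlxipl was 0.48 and -0.70, neither called. Myc was not called in either comparison (-0.15 and 0.25), and Mtor was not called (-0.42 and 0.00). Mycn rose by 1.06 in KO- against WT-labelled libraries (edgeR adjusted p 0.0389), a call lost without KO-labelled replicate 1 (1.23), KO-labelled replicate 2 (0.86) or WT-labelled replicate 2 (0.63).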

How the data were processed

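RNA-seq of 8 libraries in 4 labelled groups was used. Per the file headers, the authors deposited 1 table with raw counts per gene, RPKM values and gene lengths, and the submitters' processing notes name STAR, featureCounts, Subread and mm10, without versions. The strand setting and the handling of reads that fit several genes are not given in the sources used here. The counts entered edgeR 4.0.16 (R 4.3.3): filterByExpr, TMM scaling, 1 quasi-likelihood model of all 8 libraries with 4 residual degrees of freedom, and Benjamini-Hochberg adjustment over 13459 genes with a threshold of 0.05. Tests are two-sided, standard errors are those that the statistic implies, and an exact permutation test of 2 against 2 libraries cannot go below 0.333. Scripts were tested on simulated data. Levels are TMM-scaled CPM, and log2 CPM used a prior count of 2. The deposited RPKM values served to compare genes. Listed counts made up 81.1% to 83.3% of the totals that the RPKM values imply. No molecular identifiers are named, so counts limit precision only as reads.

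The genes and lists were chosen with earlier results of these data known. The genes named are the 10 genes, Smo, members of the 8 pathway lists (other glycolysis enzymes, sugar and lactate transport, fructose bisphosphate regulators, pyruvate entry, gluconeogenesis, pentose phosphate, hypoxia response, glycolysis regulators) and marker lists, and the 6 genes with an average log2 CPM of at least 5 most like the mean standardized profile of the 10. Alternatives were DESeq2 1.42.0, other scalings and filters, only the groups compared, a replicate block, a stress score as a covariate, removal of length trends, and each library left out. The removal of GC and length trends together was added after seeing the data. Positions are those of RefSeq on GRCm38.p6, the mm10 assembly, and all 10 symbols matched. Shared stretches come from GENCODE M21 transcripts.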

Additional observations from a re-analysis of the deposited data

How the results depend on the processing

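The number of the 10 genes called moved with the processing as follows, and the cause was not tested. In KO- against WT-labelled libraries it was 4, or 7 with no filter on low counts, 2 with length trends removed, 2 with GC and length trends removed, 1 with the stress score as a covariate, and 1 to 7 when each library was left out. In Het- against WT-labelled libraries it was 7, or 0 with the stress score and 3 to 7 with a library left out. With the stress score there, Gapdh (-0.28), Eno1 (-0.14) and Ldha (-0.15) changed sign, none of them called. In SmoM2- against WT-labelled libraries it was 0, or 7 with no filter and 0 to 5 with a library left out. In KO- against Het-labelled libraries it was 1, or 2 with no filter, 0 with the stress score, 0 with GC and length trends removed, and 0 to 1 with a library left out. In KO- against SmoM2-labelled libraries it was 3, or 5 with no filter and 1 to 4 with a library left out. Over the 4 groups it was 6, or 10 with no filter, 10 with the replicate block, 3 with the stress score and 4 to 9 with a library left out. With the replicate number as a block the other counts were 6, 7, 0, 1 and 3 in the order above. The labels give same-numbered libraries nothing in common but the number, and their deviations correlated at -0.06 to 0.39, the highest between the WT- and SmoM2-labelled groups, where same-numbered libraries were also of the same sex. Where a library was left out of a group, the lone library is assumed to vary like those of the other groups. Calls over all genes went from 3100 to 1561 in KO- against WT-labelled and from 3402 to 66 in Het- against WT-labelled libraries with the stress score. In SmoM2- against WT-labelled libraries they went from 30 to 356 with no filter, 79 with DESeq2, 16 with total count scaling, 8 with only the groups compared, 54 with the block, 20 with GC and length trends removed and 1 with the stress score. In KO- against Het-labelled libraries they went from 1269 to 2217 with no filter, 617 with length trends removed, 353 with GC and length trends removed and 202 with the stress score. Total count scaling moved the median of all genes to 0.13 in KO- against SmoM2-labelled libraries. Pfkp and Gapdh rest on fewer counts than the other genes.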

Other observations

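The pentose phosphate pathway branches from glucose 6-phosphate and makes NADPH and ribose. All 7 of its listed genes were tested. In KO- against WT-labelled libraries 3 of the 7 rose and none fell, beside 23% of all genes called, with a median log2 change of 0.35 beside 0.03 for all genes. Taldo1, which encodes transaldolase, was at 164 and 144 CPM in the KO-labelled, 138 and 124 in the Het-labelled, 81.1 and 97.3 in the WT-labelled, and 93.9 and 107 in the SmoM2-labelled libraries. It rose by 0.79 in KO- against WT-labelled libraries (SE 0.14, edgeR adjusted p 0.00308), a call that passed in all 19 alternatives. Rpia, the ribose 5-phosphate isomerase gene, rose by 0.57 (edgeR adjusted p 0.0165), or 0.43 without KO-labelled replicate 1, 0.54 without WT-labelled replicate 1 and 0.55 without WT-labelled replicate 2, which did not pass. Pgls rose by 0.44 (edgeR adjusted p 0.0333), a call that passed in 7 of 19 alternatives, and it was 0.12 with length trends removed and turned to -0.17 with GC and length trends removed. In Het- against WT-labelled libraries Taldo1 was the 1 gene called of the 7, or 14.3%, beside 25.3% of all genes. It rose by 0.56 there (edgeR adjusted p 0.0140). The rise was 0.43 without WT-labelled replicate 1, 0.45 without Het-labelled replicate 1 and 0.61 without Het-labelled replicate 2, which did not pass. Nor did it pass with the stress score as a covariate, at 0.37.

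Of 7 gluconeogenesis genes 3 were tested, and in Het- against WT-labelled libraries Pcx, which encodes pyruvate carboxylase, rose by 0.78 (edgeR adjusted p 0.00634), or 0.67 without Het-labelled replicate 1, 0.42 with the stress score and 0.50 with GC and length trends removed, none called. In KO- against WT-labelled libraries none of the 3 was called. Of all genes, 23% were called in that comparison and 25.3% in Het- against WT-labelled libraries.

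The genes whose log2 CPM followed the mean standardized profile of the 10 genes most closely over the 8 libraries, among 6531 candidates, were Calr (r = 0.98), Hsp90b1 (0.98), Tpi1 (0.97), Pdia3 (0.96), Itga9 (0.96) and Pdia4 (0.96). They were ranked by this likeness, so r is a description. That profile was lowest in WT-labelled replicate 1.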
